A study of Mus musculus with 4 samples.

Results

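Peaks of accessible chromatin in the mouse aorta were examined at the matrix metalloproteinases, the ADAMTS proteases, the ADAMTS-like proteins and the tissue inhibitors of metalloproteinases. Members were the protein-coding genes of the GENCODE vM21 annotation whose symbol is Mmp, Adamts, Adamtsl or Timp followed by digits alone. This rule took 49 of 21938 protein-coding genes, with 21 *Mmp*, 19 *Adamts*, 5 *Adamtsl* and 4 *Timp* genes. *Mmp1b* was left out because its symbol ends in a letter, and adding it brought no promoter peak in any library.

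The study profiled aortic nuclei by ATAC-seq, in which the transposase Tn5 cuts accessible DNA and places with many cuts are called as peaks. The nuclei were prepared at 60 days of age (P60) from control mice (Col3a1+/+) and from mice heterozygous for a glycine substitution in type III collagen (Col3a1G938D/+), a model of vascular Ehlers-Danlos syndrome (VEDS). Each genotype had 1 female and 1 male library, each library pooled 2 mice, and the labels give no drug for any of the 4. Each library was deposited as 1 list of peaks over all its nuclei, so that cell types within the aorta were not separated.

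Metalloproteinases cut collagen, gelatin, elastin and other proteins around the cell, and most are secreted as inactive proenzymes. The ADAMTS proteases carry thrombospondin repeats that hold them in the matrix, and among them are the enzymes that trim procollagen and those that cleave the large proteoglycans of the vessel wall. The ADAMTS-like proteins share the ancillary domains and lack the protease, and the TIMP proteins bind and block the active sites. In the aortic media, vascular smooth muscle cells (VSMCs) make much of the matrix and several of these enzymes.

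The 4 lists, each named here by its mice, differed in length. The control female library had 21176 peaks and the VEDS male library 41444, while the control male library had 1236 and the VEDS female library 504. The median number of fragments at a peak summit, recovered from the deposited statistics, was 14 and 22 in the long lists and 7 and 6 in the short ones. More than 50% of the bases were repeat-masked in 68.8% of the control male peaks and in 27.4% of the VEDS female peaks, against 3.90% and 5.09% in the long lists. All 6 VSMC marker genes (*Acta2*, *Myh11*, *Tagln*, *Cnn1*, *Myocd* and *Smtn*) had a promoter peak in both long lists, and none had one in the short lists. Of 5 endothelial markers, 0 had a promoter peak in control females and 3 in VEDS males. The 4 immune markers had none, and 1 of 5 fibroblast markers (*Pdgfra*) had one in each long list. Of 4 adipocyte and 4 striated muscle markers, none had one in control females and 1 of each (*Pparg* and *Ckm*) had one in VEDS males. The part of these cell types in the results was not tested. The long lists differed in genotype, sex and depth together, and these cannot be told apart. With 2 libraries per genotype, the smallest two-sided exact permutation p is 0.333, so no test between genotypes was made, and intervals on shares are 95% Wilson intervals that cover counting error only.

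A promoter peak lay within 1 kb of any annotated transcription start site (TSS) of the gene. In control females, 15 of 49 members had one, 30.6% (19.5 to 44.5), against 44.9% of all protein-coding genes. In VEDS males 27 of 49 had one, 55.1% (41.3 to 68.1), against 55.5%. The short lists held none, with an upper limit of 7.27% for each, while 1.34% of all protein-coding genes had a promoter peak in control males and 1.37% in VEDS females. The share of members was thus close to the background in the VEDS male list, and in the control female list the upper end of its interval lay just under the background. When the VEDS male list was shortened to its 21176 peaks of highest −log10 q, 16 members kept a promoter peak, 32.7% (21.2 to 46.6), against 47.5% of all protein-coding genes. At equal length both long lists therefore gave a share of members below that of all genes. Of the 49 members, 8 lie in a single run on chromosome 9 and had no promoter peak in any library. The intervals count these neighbouring genes as independent, and the share without them is not given here.

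Distal peaks showed the other order. A distal peak lay in the gene body or within 20 kb of it and farther than 1 kb from every TSS of a protein-coding gene. In control females 25 members had at least 1, 51.0% (37.5 to 64.4), against 26.7% of all protein-coding genes. In VEDS males 32 had one, 65.3% (51.3 to 77.1), against 45.7%. Over its 21176 highest-ranked peaks, 23 members had one, 46.9% (33.7 to 60.6), against 27.7%. The short lists gave 2 members each, 4.08% (1.13 to 13.7), against 2.23% in control males and 0.725% in VEDS females. In the first 3 of these counts the whole interval lay above the background, and in the short lists it held or lay just above it. The members are longer genes, with a median of 26.1 kb against 17.4 kb over all protein-coding genes, so the peaks were also counted per length of window. There were 1.02 distal peaks per 100 kb of member windows in control females, against 0.576 over all genes, and 2.13 against 1.41 in VEDS males. Any peak in these windows, of whatever kind, was found at 67.3% (53.4 to 78.8) of members in control females, against 64.1%. In VEDS males it was found at 77.6% (64.1 to 87.0), against 73.5%. Both of these backgrounds lay within the interval.

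**Figure D1:**
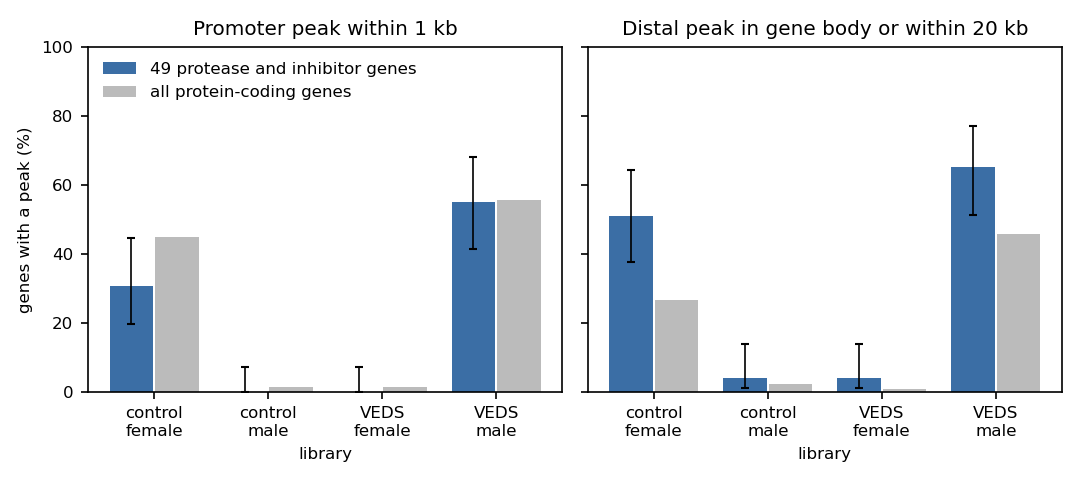
Share of genes (%) with a promoter peak within 1 kb of a TSS (left) and with a distal peak (right) in each of the 4 libraries, for the 49 protease and inhibitor genes (blue, with 95% Wilson intervals) and for all protein-coding genes (grey). Members lay at 30.6% and 55.1% for promoter peaks and at 51.0% and 65.3% for distal peaks in the 2 long lists, control females first, and at 0% or 4.08% in the short lists.

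The member promoter peaks were not among the highest. Their median rank by −log10 q was 10818 of 21176 in control females, where all promoter peaks had a median rank of 6874. In VEDS males it was 18712 of 41444, against 11153. All 15 members with a promoter peak in control females also had one in VEDS males: *Adamts1*, *Adamts2*, *Adamts3*, *Adamts6*, *Adamts9*, *Adamts12*, *Adamts14*, *Adamts15*, *Adamts17*, *Mmp14*, *Mmp16*, *Mmp17*, *Mmp23*, *Timp2* and *Timp3*. Another 12 had one in VEDS males alone, and 22 had none in either. At equal list length 12 members were shared, 3 were in the control female list alone (*Adamts3*, *Adamts12* and *Mmp17*) and 4 in the VEDS male list alone (*Adamts10*, *Adamtsl4*, *Mmp11* and *Mmp28*). Of all 21938 protein-coding genes, 9840 had a promoter peak in control females, 12176 in VEDS males and 10422 in the shortened VEDS male list. How many of these genes the lists shared is not given here at either length, so the sharing among members has no background.

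The procollagen N-proteinases *Adamts2*, *Adamts3* and *Adamts14* remove the amino-terminal propeptide of fibrillar procollagens, among them the type III collagen that carries the VEDS substitution. All 3 had a promoter peak in both long lists, against 44.9% of all protein-coding genes in control females and 55.5% in VEDS males. They held 10 distal peaks in control females and 24 in VEDS males. *Adamts2* had the most distal peaks of any member, with 7 in control females, 0 in both short lists and 14 in VEDS males. Its window was long, at 245 kb, and per 100 kb it had 2.85 and 5.70 distal peaks in the long lists. Per 100 kb, *Adamtsl4* had the highest value in control females, 7.73, and *Timp3* in VEDS males, 10.1. The *Adamts2* promoter peak had 14 fragments in control females (rank 10799 of 21176) and 39 in VEDS males (rank 10781 of 41444). Its highest distal peak lay in an intron 72.4 kb from the nearest *Adamts2* TSS, at chr11:50674480-50674815 (GRCm38/mm10, as all coordinates here) in the control female list, with 28 fragments there and 82 in VEDS males. A second intron peak 67.5 kb from the TSS, at chr11:50669607-50669936, had 24 and 71 fragments. *Adamts14* had 3 and 7 distal peaks, and *Adamts3* had 0 and 3.

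*Adamts17*, which is mutated in a human syndrome of short stature and lens dislocation, had the highest promoter peak of any member in both long lists. That peak ranked 3867 of 21176 with 23 fragments in control females and 2347 of 41444 with 64 fragments in VEDS males, and the short lists did not hold it. *Adamts17* also came second for the number of distal peaks, with 6 and 13 in the long lists. All but 1 VEDS male peak downstream of the gene lay in introns. Per 100 kb of its 353 kb window it had 1.70 and 3.68. *Adamts6*, a close homologue of *Adamts10*, had 4 distal peaks in each long list. *Adamts6* had a promoter peak in both long lists, and *Adamts10* only in the VEDS male list (rank 19343, 30 fragments). *Adamts16*, *Adamts18* and *Adamts20* had no peak in any library.

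The proteoglycanases cleave versican and aggrecan. Of these 7 genes (*Adamts1*, *Adamts4*, *Adamts5*, *Adamts8*, *Adamts9*, *Adamts15* and *Adamts20*), 3 had a promoter peak in control females and 4 in VEDS males. Of all protein-coding genes, 44.9% and 55.5% had one in these lists. *Adamts9* had the third highest promoter peak in the control female list (rank 8373, 21 fragments), ranked 9972 with 51 fragments in the VEDS male list, and had 5 and 9 distal peaks. *Adamts1* had the second highest promoter peak in both, at rank 6340 with 27 fragments and at rank 6814 with 64 fragments. This peak lay inside the gene, at an annotated internal TSS, and a separate peak lay at the upstream end of the gene. *Adamts15* had a distal peak of high rank downstream of the gene, at chr9:30896720-30897111 in the control female list, ranked 3375 with 22 fragments and ranked 5152 with 47 fragments in the VEDS male list. *Adamts5* had 1 intron peak and no promoter peak in the control female list, and 2 promoter peaks of low rank in the VEDS male list (39182 and 41356 of 41444, 11 and 9 fragments). *Adamts8* lies beside *Adamts15*, and 2 VEDS male distal peaks fell in the windows of both genes. Of the pair that cleaves cartilage oligomeric matrix protein, *Adamts12* had a promoter peak in both long lists and *Adamts7* only in the VEDS male list (rank 36385, 10 fragments). *Adamts13*, the protease of von Willebrand factor, had neither a promoter nor a distal peak.

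The ADAMTS-like genes had distal peaks without promoter peaks within 1 kb in control females. All 5 had at least 1 distal peak there, 12 in all, against 26.7% of all protein-coding genes. Of the 5, 0 had a promoter peak, against 44.9%. Some of these distal peaks lay close to a TSS of the gene. Those of *Adamtsl5* were 2.01 and 1.91 kb away, and *Adamtsl4* had peaks at 1.35 and 2.67 kb. With promoters taken within 3 kb, both genes would have a promoter peak there. In VEDS males 4 of 5 had a promoter peak, against 55.5%, and 4 had distal peaks, 26 in all, against 45.7%. *Adamtsl4*, which binds fibrillin-1 and is mutated in ectopia lentis, had 4 and 5 distal peaks in the long lists. These included 3 neighbouring peaks that lay downstream of the gene within about 9 kb of a TSS, with 33, 31 and 21 fragments in control females and 51, 61 and 84 in VEDS males. *Adamtsl3* had 3 and 9 distal peaks, and its VEDS male promoter peaks had 17 and 12 fragments. *Adamtsl1*, the longest member at 914 kb, had 2 and 9 distal peaks and no promoter peak in either list, and per 100 kb of window it had 0.210 and 0.943. *Adamtsl2*, mutated in geleophysic dysplasia, and *Adamtsl5* had a promoter peak only in VEDS males, at ranks 31032 and 35942.

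**Figure D2:**
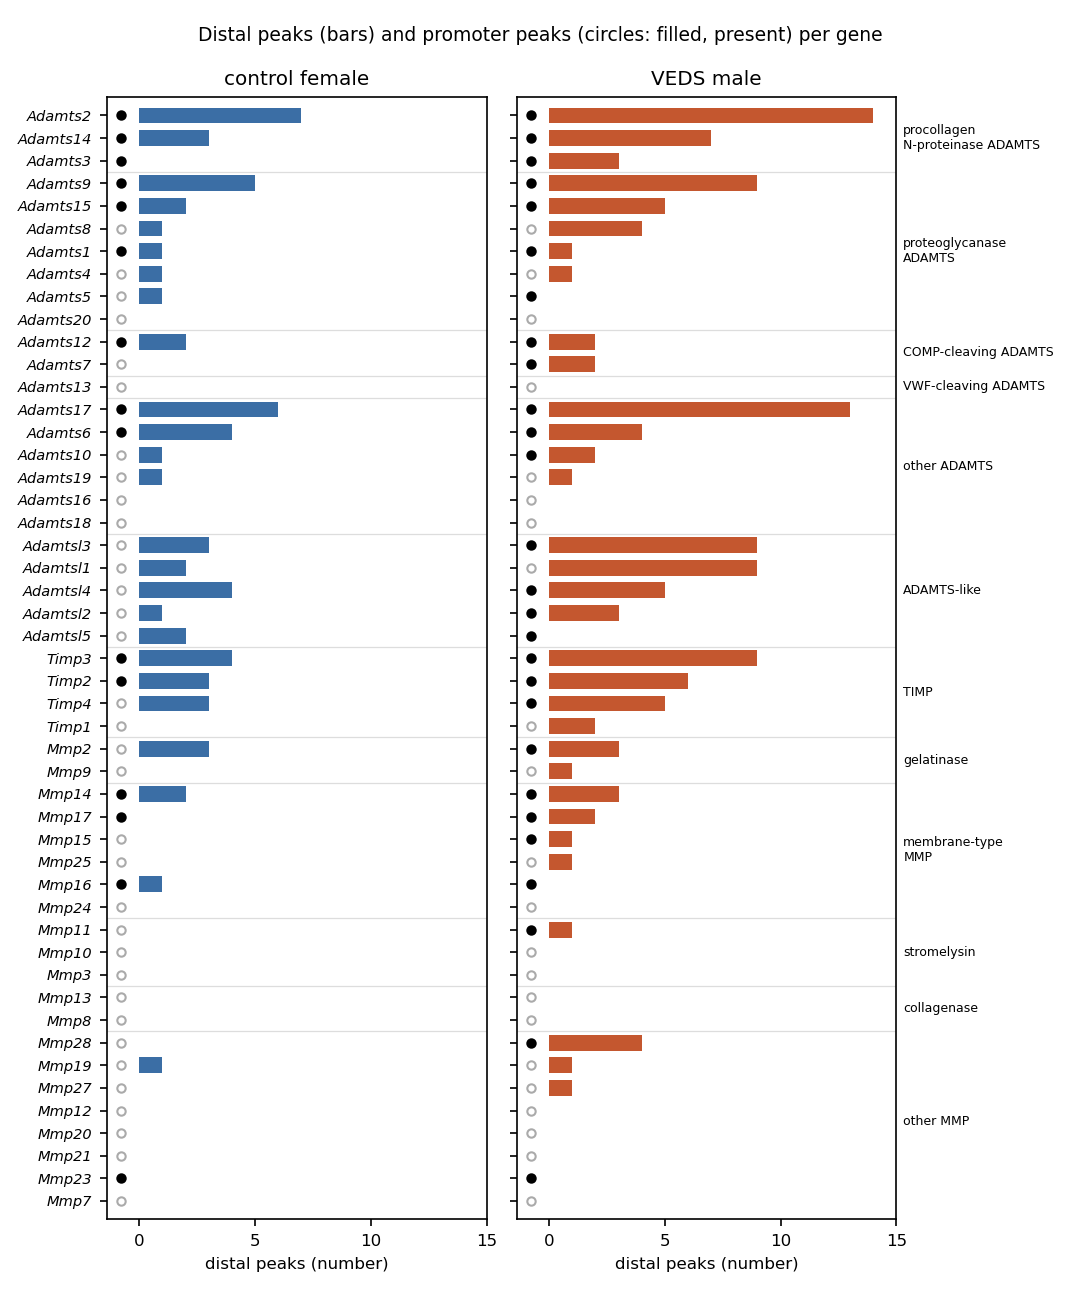
Number of distal peaks (horizontal bars) of each of the 49 members in control females (left) and VEDS males (right), grouped by class, with a filled circle where the gene had a promoter peak within 1 kb and an open circle where it had none. *Adamts2* had the most in both, 7 and 14, and the collagenases had none. The numbers are not adjusted for gene length.

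Among the 4 inhibitors, 3 had distal peaks in both long lists. Of all protein-coding genes, 26.7% had a distal peak in control females and 45.7% in VEDS males. *Timp3*, which is held in the matrix and also inhibits ADAMTS proteases, had 4 distal peaks in control females, 0 in both short lists and 9 in VEDS males. It had 2 promoter peaks in each long list. The higher one in control females was at the gene start (rank 8885, 18 fragments), and the higher one in VEDS males was at a TSS inside the gene (rank 18595, 30 fragments). *Timp2*, which takes part with *Mmp14* in the activation of pro-MMP2, had 1 promoter peak in each long list (rank 10818 with 16 fragments, and rank 9528 with 45 fragments, the third highest member promoter in the VEDS male list). It had 3 and 6 distal peaks. *Timp4* had 3 and 5 distal peaks, and a promoter peak only in the VEDS male list (rank 38021, 11 fragments). *Timp1* had no peak in control females and none in the short lists. Its 2 VEDS male peaks, 6.59 kb and 6.27 kb upstream, ranked 38643 and 40345 of 41444 with 10 and 9 fragments. *Timp1*, *Timp3* and *Timp4* lie within the *Syn1*, *Syn3* and *Syn2* genes, so that their distal peaks are also within those genes.

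The gelatinases differed from each other. *Mmp2*, a gelatinase made by VSMCs and fibroblasts, had 3 distal peaks in each long list and 0 in the short lists. The highest lay in an intron at chr8:92850243-92850582 in the control female list, 6.29 kb from the nearest *Mmp2* TSS, ranked 3293 of 21176 with 29 fragments, and ranked 3319 of 41444 with 72 fragments in the VEDS male list. All 3 *Mmp2* distal peaks of the control female list overlapped one of the VEDS male list. The *Mmp2* promoter had no peak in the control female list and 1 in the VEDS male list, 0.858 kb from the TSS with 7 fragments, at rank 41393 of 41444. *Mmp9*, a gelatinase made largely by inflammatory cells, had no peak in the control female list or the short lists. The VEDS male list held 1 distal peak 16.1 kb upstream of *Mmp9* (rank 21452, 17 fragments). *Mmp14*, the membrane-bound protease that cleaves collagen and activates pro-MMP2, had a promoter peak in both long lists (rank 8838 with 17 fragments, and rank 13126 with 36 fragments). It had 2 and 3 distal peaks. Of the 6 membrane-type genes, 3 had a promoter peak in control females and 4 in VEDS males, against 44.9% and 55.5% of all protein-coding genes.

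**Figure D3:**
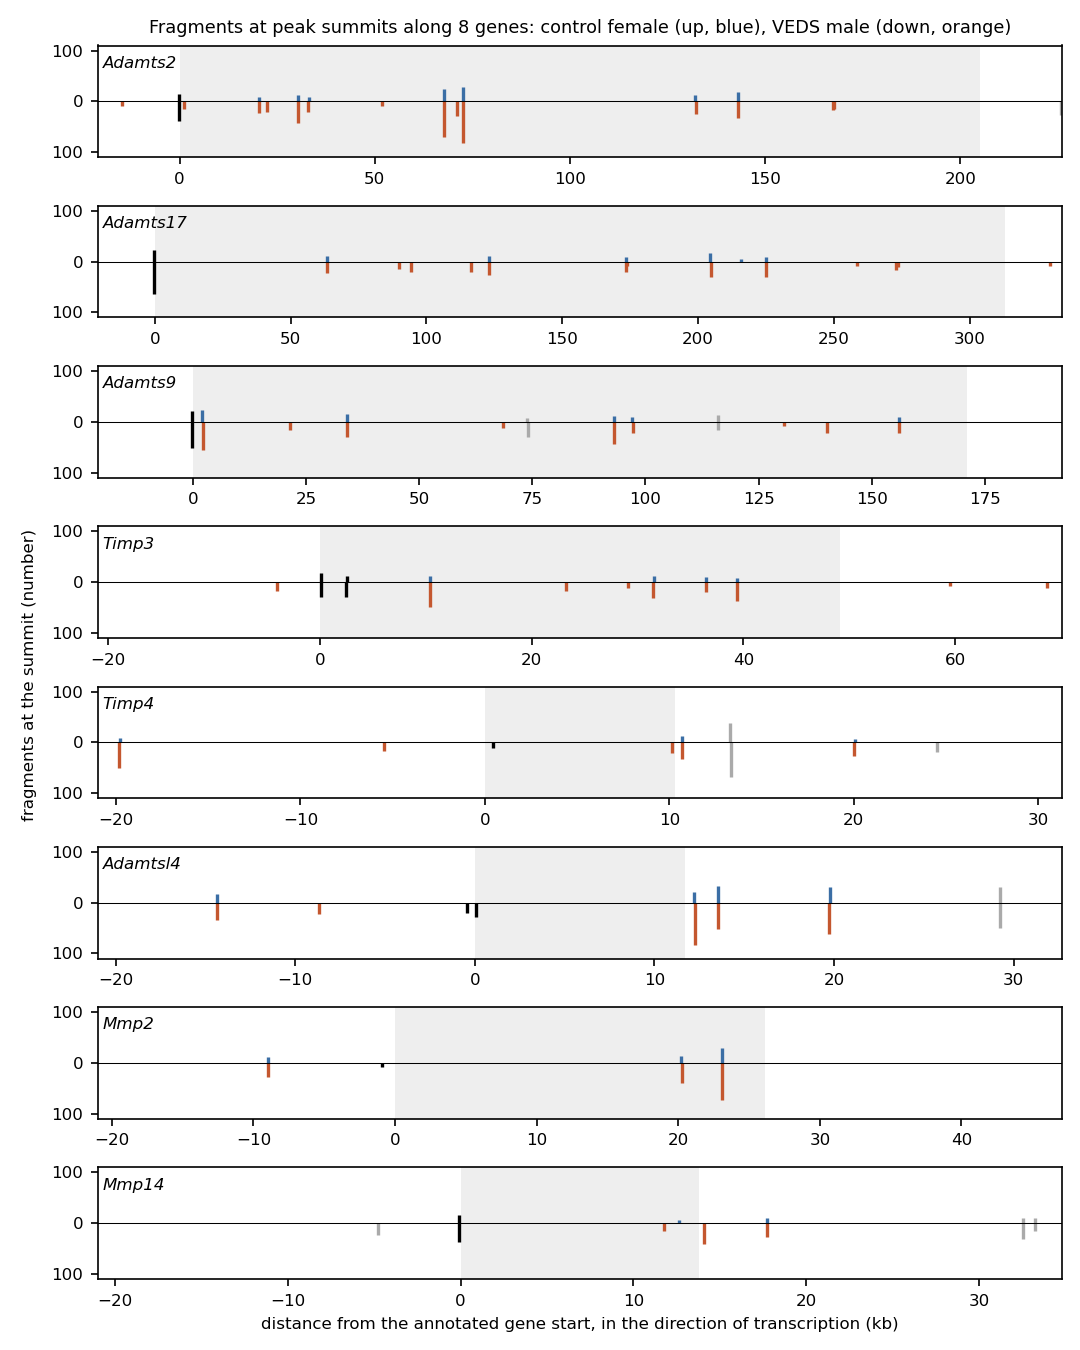
Peaks along 8 genes, with the distance from the annotated gene start in the direction of transcription (kb) on the horizontal axis and the number of fragments at the summit on the vertical axis, control female upwards and VEDS male downwards. Promoter peaks are black, peaks within 1 kb of the TSS of another protein-coding gene are grey, distal peaks are blue or orange, and the grey band is the gene. The highest distal peaks of *Mmp2* (29 and 72 fragments) and *Adamts2* (28 and 82 fragments) lie inside the gene in both lists.

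The remaining promoter peaks found only in the VEDS male list were of middle to low rank. They were *Mmp28*, the metalloproteinase epilysin (rank 15273, 30 fragments), *Mmp11* (18087, 25 fragments), *Adamtsl4* (18773, 29 fragments) and the membrane-type *Mmp15* (29561, 16 fragments). The *Mmp11* peak also lay within 1 kb of a TSS of *Chchd10*, with its summit inside that gene, so it cannot be assigned to *Mmp11* alone. Among the 12 members of this kind, ranks ran from 15273 to 41393 of 41444.

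A run of 8 members lies on chromosome 9, at chr9:7272514-7699585 over 427 kb, with *Mmp13*, *Mmp12*, *Mmp3*, *Mmp10*, *Mmp8*, *Mmp27*, *Mmp20* and *Mmp7* in order. They include the collagenases *Mmp8* and *Mmp13*, the stromelysins *Mmp3* and *Mmp10*, and the macrophage elastase *Mmp12*. Not 1 had a promoter peak in any of the 4 libraries. Of all protein-coding genes, 44.9% had one in control females and 55.5% in VEDS males. The run held 1 peak in all, a VEDS male distal peak downstream of *Mmp27* at chr9:7595250-7595533 (rank 19266, 18 fragments). A promoter without a peak here was not called at this depth, which does not show that it is closed.

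The promoters of several of these genes carry the AP-1 site for which they are known, and they are printed because no peak lay on any of them. The AP-1 consensus, TGACTCA or TGAGTCA on either strand, was found in the 300 bases from 250 before to 50 after the gene start of 5 of 49 members, against 4.59% of all protein-coding genes. The 5 were *Mmp3*, *Mmp7*, *Mmp10*, *Mmp13* and *Mmp19*, none of which had a promoter peak in any library. The bases around each site, from the GRCm38.p6 reference and ending before the annotated gene start, are given 5′ to 3′ on the strand of the gene (the plus strand for all 5), with the site in capitals.
*Mmp13*, chr9:7272449-7272513: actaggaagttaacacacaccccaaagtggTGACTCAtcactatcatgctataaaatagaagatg
*Mmp3*, chr9:7445746-7445812: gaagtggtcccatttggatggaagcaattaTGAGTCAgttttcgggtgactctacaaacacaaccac
*Mmp10*, chr9:7502249-7502315: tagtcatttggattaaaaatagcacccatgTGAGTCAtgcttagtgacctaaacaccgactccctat
*Mmp7*, chr9:7691997-7692063: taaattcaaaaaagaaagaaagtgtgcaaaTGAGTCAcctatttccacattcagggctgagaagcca
*Mmp19*, chr10:128790848-128790909: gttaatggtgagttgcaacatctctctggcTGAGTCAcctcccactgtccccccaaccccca
The site began 35 bases before the gene start in *Mmp13*, 46 in *Mmp3*, 73 in *Mmp10*, 63 in *Mmp7* and 32 in *Mmp19*. The first 4 lie in the chromosome 9 run. Other patterns, described below, were searched in the same 300 bases, and each count is set against the share of all protein-coding genes. ETS was in 11 members against 16.4%, RUNX in 2 against 5.09%, MEF2 in 1 against 2.85% and SRF in 1 against 1.48%. TEAD was in 1 against 2.34%, and the steroid response element in 0 against 0.205%. No excess of any pattern was tested.

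By the median, the gene starts of members with a promoter peak held more CpG than those of members without one. The ratio was taken at the annotated gene start, while a promoter peak could lie at any TSS of the gene. It therefore may not describe the bases under the peak, as for the highest *Adamts1* promoter peak at an internal TSS. The CpG observed/expected ratio of the same 300 bases had a median of 0.704 in the 15 members with a promoter peak in both long lists, 0.603 in the 12 with one in the VEDS male list alone, and 0.171 in the 22 with none. The groups overlapped, and *Adamts8* and *Mmp24* had no promoter peak at ratios of 0.988 and 0.918. Over all protein-coding genes the medians were 0.745 with a VEDS male promoter peak and 0.219 without one. Among genes with a ratio of at least 0.6, a promoter peak was found in control females in 9 of 20 members, 45.0% (25.8 to 65.8), against 73.9% of all genes. In VEDS males it was found in 15 of 20, 75% (53.1 to 88.8), against 86.0%. Below 0.6, it was found in 6 of 29 members in control females, 20.7% (9.85 to 38.4), against 21.7%, and in 12 of 29 in VEDS males, 41.4% (25.5 to 59.3), against 31.1%.

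**Figure D4:**
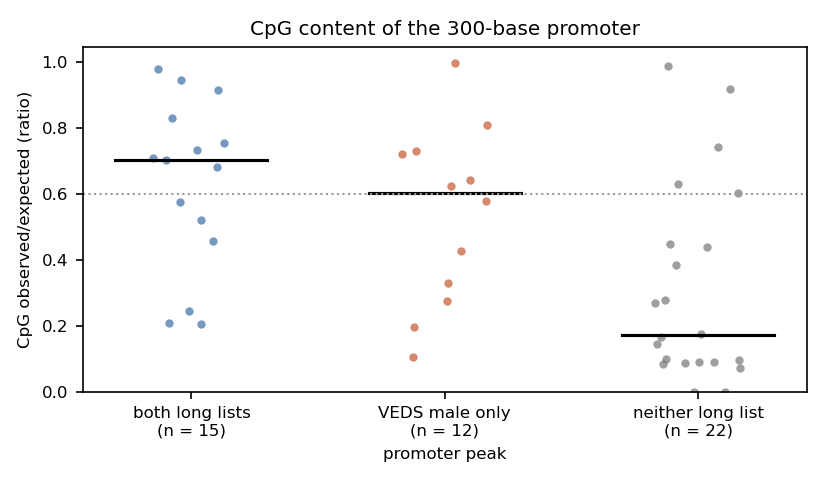
CpG observed/expected ratio of the 300-base promoter of each member (points), grouped by whether it had a promoter peak in both long lists, in the VEDS male list only or in neither, with the median of each group (black line) and the ratio 0.6 (dotted line). The medians were 0.704, 0.603 and 0.171, and the ranges of the groups overlapped. The 300 bases lie at the annotated gene start, which is not always the TSS nearest the peak.

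The distal peaks of the members lay mostly in introns, with 39 of 64 in control females and 81 of 132 in VEDS males. Of the others in VEDS males, 25 lay upstream of the gene, 19 downstream and 7 in an exon. The long lists shared most of the control female distal peaks. Of 64, 54 overlapped a VEDS male peak by at least 1 base, 84.4% (73.6 to 91.3), against 92.2% of distal peaks at all protein-coding genes. Of the 132 VEDS male peaks, 54 overlapped a control female peak, 40.9% (32.9 to 49.4), against 36.5%. Shared VEDS male peaks had a median of 30 fragments and those in that list alone had 14. The corresponding control female medians were 12 and 8 fragments. With both libraries of a genotype merged, the members held 65 distal peaks in control and 132 in VEDS, of which 84.6% and 41.7% were overlapped by the other genotype. Both merged counts rested on the long list, since the short list of each genotype alone gave 2. With the VEDS male list shortened to 21176 peaks, 67.7% of the control peaks and 80.0% of 55 VEDS peaks were overlapped. For the merged and the shortened lists the share over distal peaks at all protein-coding genes is not given here, so these shares have no background.

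**Figure D5:**
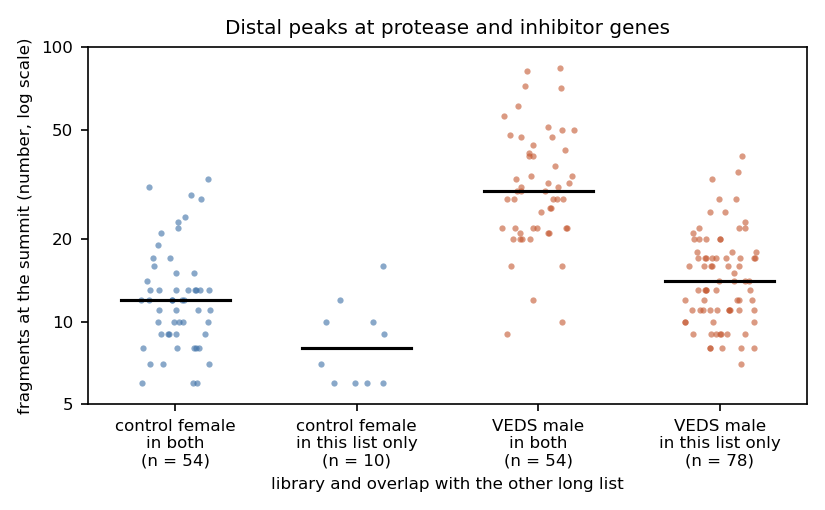
Fragments at the summit (log scale) of each distal peak at the members, for control females (blue) and VEDS males (orange), split by overlap with the other long list, with the median as a black line. Shared peaks had medians of 12 and 30 fragments, and peaks of 1 list only had 8 and 14.

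The short lists held 4 distal peaks at 3 members. *Adamts1* had a downstream peak in all 4 libraries, with 8 and 12 fragments in control females and males, and 4 and 16 in VEDS females and males, between 15.3 and 15.7 kb from the nearest *Adamts1* TSS. Between 99.3% and 99.6% of its bases were repeat-masked in every library, and no short list held another *Adamts1* peak. *Adamtsl4* had a VEDS female peak at chr3:95675333-95675579, ranked 499 of 504 with 5 fragments. This peak overlapped peaks of both long lists. *Mmp28* had a control male intron peak at chr11:83448248-83448547, ranked 826 of 1236 with 6 fragments. It overlapped a VEDS male peak of 35 fragments and no control female peak.

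Short consensus sequences were searched on both strands within the distal peaks, since AP-1, MEF2 and SRF act in VSMCs. The words were TGACTCA or TGAGTCA for AP-1, ACATTCCA or ACATTCCT for TEAD, AACCACA for RUNX and AGGAAGT or CGGAAGT for ETS. MEF2, SRF (the CArG box) and the steroid response element were searched as their usual palindromic patterns, and a peak was counted once for each pattern it held, also where patterns overlapped. AP-1 words were in 6 of 64 control female member peaks, 9.38% (4.37 to 19.0), against 16.8% of distal peaks at all protein-coding genes. In VEDS males they were in 12 of 132, 9.09% (5.28 to 15.2), against 15.4%. TEAD words were in 10.9% (5.40 to 20.9) of control female peaks against 6.27%, and in 5.30% (2.59 to 10.5) of VEDS male peaks against 5.88%. The steroid response element was in 1 of 64 control female peaks, 1.56% (0.276 to 8.33) against 1.12%, and in 4 of 132 VEDS male peaks, 3.03% (1.18 to 7.53) against 0.842%. For MEF2, SRF, RUNX and ETS the background lay within the interval in both lists. The AP-1 background lay just outside the VEDS male interval for whole peaks and inside it when 300 bases around each summit were searched (9.85%, 5.85 to 16.1, against 15.3%). The steroid response element background in VEDS males lay below the interval in both searches (0.842% for whole peaks and 0.786% around the summit, against an interval of 1.18 to 7.53). This rests on 4 peaks, more than 1 of them at *Adamts2*. Among all the patterns and lists searched it was the only such case, and the intervals make no allowance for that number. An excess was not tested.

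Some of the sites in distal peaks of both long lists are printed, for 7 members described above. These sites lay in peaks of the control female and VEDS male lists, a single library of each genotype, and in no peak of the short lists. The same members held other such sites that are not printed. They were a TEAD word in *Adamts2* and in *Adamtsl4*, an ETS word in *Timp4* and a MEF2 site in *Timp3*. Sites of this kind at other members are not printed either. Each printed site is on the plus strand of GRCm38 (mm10), 5′ to 3′, with the site in capitals and 30 bases on either side.
*Adamts2*, SRF, chr11:50669700-50669769: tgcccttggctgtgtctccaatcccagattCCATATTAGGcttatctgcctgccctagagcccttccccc
*Adamts2*, AP-1, chr11:50669801-50669867: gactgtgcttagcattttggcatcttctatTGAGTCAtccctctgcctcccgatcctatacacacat
*Adamts2*, steroid response element, chr11:50744984-50745058: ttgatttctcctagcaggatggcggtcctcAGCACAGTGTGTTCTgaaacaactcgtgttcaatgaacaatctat
*Adamts17*, AP-1, chr7:66962857-66962923: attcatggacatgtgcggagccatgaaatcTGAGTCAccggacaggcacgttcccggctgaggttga
*Adamts15*, AP-1, chr9:30896877-30896943: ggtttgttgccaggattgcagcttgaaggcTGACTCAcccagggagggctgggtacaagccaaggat
*Adamts9*, MEF2, chr6:92909534-92909603: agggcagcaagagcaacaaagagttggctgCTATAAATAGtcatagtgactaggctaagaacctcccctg
*Adamtsl4*, AP-1, chr3:95702208-95702274: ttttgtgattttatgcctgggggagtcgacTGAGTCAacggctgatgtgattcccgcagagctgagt
*Timp3*, SRF, chr10:86310747-86310816: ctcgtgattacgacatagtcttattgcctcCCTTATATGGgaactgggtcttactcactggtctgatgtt
*Timp4*, AP-1, chr6:115271918-115271984: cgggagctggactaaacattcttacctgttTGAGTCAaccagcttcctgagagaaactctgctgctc
The SRF and AP-1 sites of *Adamts2* lie in the same intron peak, 67.5 kb from the nearest TSS, and the steroid response element in another intron peak at 30.8 kb. The *Adamts17* site lies in an intron 53.4 kb from the nearest TSS, and the *Adamts15* site lies downstream of that gene, 12.5 kb from its nearest TSS. The *Adamts9* site is in an intron, with 15 fragments at the control female summit and 30 at the VEDS male summit. The printed *Adamtsl4* site lies upstream of the gene with 17 and 34 fragments. The printed *Timp3* site, in an intron, had 12 and 48 fragments. The printed *Timp4* site, upstream of the gene in *Syn2*, had 9 and 50. A match is a description of the letters and not a measure of binding.

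Other genes of matrix proteolysis were counted in the same way. Of 35 genes for protease activation, inhibition and clearance, cathepsins, astacins and ADAM proteases, 14 had a promoter peak in control females, 40.0% (25.6 to 56.4) against 44.9% of all protein-coding genes, and 23 in VEDS males, 65.7% (49.2 to 79.2) against 55.5%. Distal peaks were found at 12 of them in control females, 34.3% (20.8 to 50.8) against 26.7%, and at 24 in VEDS males, 68.6% (52.0 to 81.4) against 45.7%. The background lay within the interval for each but the VEDS male distal peaks, where it lay below the interval, as it did for the members. None had a peak of either kind in the short lists. *Lrp1*, the receptor that clears proteases, had a promoter peak in both long lists, with 0 and 7 distal peaks. *Reck*, a membrane-anchored inhibitor of metalloproteinases, had a promoter peak only in the VEDS male list. The plasminogen activators *Plat* and *Plau* differed, with a promoter peak in both long lists for *Plat* and only in the VEDS male list for *Plau*.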

How the data were processed

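Nuclei of aortas pooled from 2 mice each were taken through the 10x Genomics single-cell ATAC workflow, and per the labels peaks were called with MACS2 on mm10 (GRCm38). According to the study's methods, duplicates were removed with cell barcodes, Tn5 cut sites were corrected and blacklisted regions were left out. The authors deposited 1 peak list per library with a display score (not used here for any value), a fold enrichment (a ratio of the summit to local background), a −log10 p and a −log10 q. The deposited −log10 q of each list began at 1.30 to 1.32. Fragments at the summit were recovered as the whole number giving both the deposited fold enrichment and the deposited −log10 p, to a tolerance of 0.001. A number was found for 99.3% to 99.9% of peaks. The test on simulated data used the same formula, so it checks the arithmetic and not what the caller counted. The numbers are called fragments here, and the study's methods do not say whether fragments or cut sites were piled up. Ranks are by −log10 q within a list.

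Genes and TSSs came from GENCODE vM21 on GRCm38.p6 and sequences from the GRCm38.p6 reference. Python 3.11.15, numpy 2.4.6, pandas 2.3.3, scipy 1.17.1 and pysam 0.24.0 were used. Total fragments and cell barcodes were not analysed here, so the depth is known only as fragments at summits. No test between genotypes was run. The members, gene classes, related genes and consensus sequences were chosen with earlier results of these data known. The genes named were the 5 with most distal peaks in each long list (with ties), the TIMP genes, members with a short-list peak, members with a promoter peak in 1 long list only, *Mmp2*, *Mmp9* and *Mmp14*, members of a run of at least 5 with under 500 kb between neighbours, and the 3 highest promoter peaks of each long list. Other genes are named as examples of their class, as members without peaks or as carriers of a printed site, and were chosen after their values were seen. Alternatives changed the threshold on −log10 q, the list length, the promoter and window limits, the TSS set, the overlap, masked peaks and the libraries used.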

Additional observations from a re-analysis of the deposited data

Results flagged for a closer look

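Within each sex, the number of peaks at the members moved in opposite directions between the genotypes. VEDS minus control was −15 members with a promoter peak in females and 27 in males, and −62 distal peaks in females and 130 in males. The difference was not tested, since each sex has 1 library per genotype. In each sex the library with more peaks at the members was also the one with the longer list and the higher median of fragments at the summit, 14 against 6 in females and 22 against 7 in males, and the part of depth in the difference was not tested.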

How the results depend on the processing

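The values are counts and shares with no test, so stability means only that a share stayed within the 95% interval of the reported value or a count within 1.5 times. Requiring −log10 q of at least 5 left 40 control distal peaks. At 10, promoter peaks remained at 8.16% of members in control and 34.7% in VEDS, with 15 and 59 distal peaks, of which 100% and 25.4% were overlapped by the other genotype. Over the 504 highest-ranked peaks of each library, 0% of members had a promoter peak in either genotype, 1 control and 2 VEDS distal peaks remained, and 100% of the control peaks were overlapped. With the VEDS male list shortened to 21176 peaks, VEDS fell to 32.7% of members with a promoter peak and 55 distal peaks, and the overlapped shares became 67.7% in control and 80.0% in VEDS. Counting gene bodies alone left 42 control distal peaks, and requiring 50% of the peak to overlap left 28.0% of VEDS peaks overlapped.

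Leaving out 1 library at a time gave 0% to 30.6% of members with a promoter peak and 2 to 64 distal peaks in control, and 0% to 55.1% and 2 to 132 in VEDS. The low ends came without the control female or the VEDS male library. The overlapped share ran from 3.08% to 100% in control and from 1.52% to 100% in VEDS. Promoters within 3 kb, coding transcripts only, windows of 50 kb, TSSs of any annotated gene, omission of masked peaks, the addition of *Mmp1b* and the search of 300 bases around the summit kept the shares and totals over the members within those limits, though counts of single members moved. Of the promoter and distal counts of single members in the long lists, 31 moved and 165 did not at −log10 q of at least 5, 69 and 127 at 10, 38 and 158 with the shortened list, 4 and 192 without masked peaks, 16 and 82 with promoters within 3 kb, 25 and 73 with windows of 50 kb, 31 and 67 with gene bodies alone, 99 and 97 over the 504 highest-ranked peaks, 4 and 94 with TSSs of any gene, and 3 and 95 with coding transcripts only. No paired test was possible because each sex has 1 library per genotype, and the replicate numbers were given in accession order. The differences within each sex are given above as values. Shallow lists limit every absence, and most of all in the 2 short lists.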

Other observations

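*Mmp19*, a metalloproteinase with an AP-1 word at its promoter and no promoter peak, had a distal peak 11.1 kb from its TSS in both long lists. The VEDS male peak, at chr10:128779530-128779813 with 21 fragments (rank 15634), held an AP-1 word, an ETS word and a steroid response element. The narrower control female peak, at chr10:128779633-128779773 with 6 fragments (rank 20241), held none of the 3.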
